A study of Homo sapiens with 12 samples.

Results

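The difference that SFRP2 overexpression made in PC3 cells on collagen type I was set against the difference it made on uncoated plastic. SFRP2 is a secreted protein that binds WNT ligands, and PC3 is an established human cell line from a bone metastasis of prostate cancer. The data are RNA sequencing counts of 12 libraries, 3 in each of 4 groups: COL1-PC3SFRP2 (cells overexpressing SFRP2, on collagen), COL1-PC3 (control cells, on collagen), CCP-PC3SFRP2 (overexpressing cells, on plastic) and CCP-PC3 (control cells, on plastic). COL1 is a coating of collagen type I from rat tail, and CCP is the uncoated culture plastic that the sample labels call Nunc. Both cell lines carried a Sleeping Beauty transposon with a red fluorescent protein and puromycin resistance, and only PC3SFRP2 carried the SFRP2 coding sequence. Each line was a selected and sorted pool of cells, not said to be a clone, and no second, independently made line was described, so the effect of SFRP2 and a difference between these lines cannot be told apart. For each library, 100000 cells were seeded and RNA was taken after 5 days. Biological replicates is what the labels call the 3 libraries of a group, with nothing on whether the flasks were grown independently. Without that, p-values speak only of the variation among these libraries, part or all of which may be technical. For every gene the interaction was the log2 fold change COL1-PC3SFRP2 minus COL1-PC3, less the log2 fold change CCP-PC3SFRP2 minus CCP-PC3. A positive interaction means a fold change that was more positive on collagen. Of 60676 genes in the table, 20364 held at least 10 counts summed over the 12 libraries and were tested.

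Collagen type I is the main protein fiber of bone, and cells bind it through integrins and discoidin domain receptors. SFRP proteins hold WNT ligands away from Frizzled receptors in some settings and prolong their range in others, and SFRP2 has also been tied to procollagen processing. A secreted protein made in large amounts passes through the endoplasmic reticulum, where chaperones such as HSPA5 fold it, and a rise in such chaperones is the textbook mark of the unfolded protein response.

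SFRP2 itself checked the labels. It had 15681, 10421 and 31131 CPM (counts per 1000000 counts of the TMM-scaled library) in COL1-PC3SFRP2 and 27.0, 20.5 and 10.9 CPM in COL1-PC3. On plastic it had 15990, 15060 and 18583 CPM in CCP-PC3SFRP2 and 10.7, 15.9 and 24.3 CPM in CCP-PC3. Every overexpressing library was far above every control library. The log2 fold change was 9.95 on COL1 (standard error 0.54) and 9.93 on CCP (standard error 0.54). Its interaction was 0.02, with a 95% interval of -1.13 to 1.17. The gene, ENSG00000145423, spans 153780591 to 153789083 of chromosome 4 (GRCh38). Epithelial and PC3 markers were present: the 8 on the list summed to 3591 to 6385 CPM over all libraries. KLK3 and KLK2, which PC3 lacks, were close to 0. EMCN, 1 of 7 endothelial markers, and MYOD1, MYOG, CKM and PAX7, 4 of 7 muscle markers, were at 0 in every library. Single markers of other cells were present: PECAM1, an endothelial adhesion molecule, averaged 11.9 CPM over all libraries, COL1A1, the main collagen of fibroblasts, 9.27 CPM, and TMPRSS2, a protease of prostate epithelium, 20.3 CPM. The endothelial list summed to 7.34 to 18.6 CPM in COL1-PC3SFRP2, 11.9 to 15.6 in COL1-PC3, 10.9 to 13.0 in CCP-PC3SFRP2 and 13.1 to 17.1 in CCP-PC3. The 8 stromal markers summed to 9.93 to 17.8 CPM in COL1-PC3SFRP2, 8.84 to 11.1 in COL1-PC3, 8.87 to 13.0 in CCP-PC3SFRP2 and 7.54 to 9.40 in CCP-PC3. The 8 leukocyte markers and the 7 muscle markers each summed to under 2 CPM in every library. Their part in the results was not tested.

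The libraries of COL1-PC3SFRP2 stood apart in base composition, and the third stood apart from its own group. Library totals were 5529459 to 6309800 counts in COL1-PC3SFRP2, 5893267 to 9059700 in COL1-PC3, 7446136 to 8380405 in CCP-PC3SFRP2 and 7472812 to 9975972 in CCP-PC3. The Pearson correlation of log2 CPM across genes was 0.888 and 0.837 between the third library of COL1-PC3SFRP2 and the others of its group, against 0.964 to 0.992 for all other pairs within a group. Genes of the mitochondrial genome took 7.17% of its counts, against 13.7% and 16.8% in the first and second library of COL1-PC3SFRP2 and 19.8% to 24.02% in the other 9. Across 10558 genes with a mean of at least 5 CPM, the deviation of a library from the mean of all libraries had a Spearman correlation with the GC content of the gene of 0.75 to 0.86 in COL1-PC3SFRP2 and of -0.56 to 0.62 in the other 9 libraries. These correlations run over genes, which are not independent replicates. The deposited table of all libraries held other counts under the name of the third library, with 7300197 counts in all, a mitochondrial share of 16.1% and a GC correlation of -0.43. Of the 60676 genes, 38245 had equal counts in both, genes at 0 in both included. The counts of the other table had a correlation of 0.832 with the first and 0.890 with the second library of COL1-PC3SFRP2. By that measure they were about as far from those libraries as the third library used here (0.888 and 0.837). The counts used here as the third library stand in that table under a further name, which no sample label carries. The number that the labels give this sample is 7067, while the other samples run from 7049 to 7059 without a gap. Which of the 2 sets of counts is the sample cannot be told from the names, so results are also given without the third library and with the counts of the other table in its place.

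The interaction followed GC content closely. Its Spearman correlation with GC over the 10558 genes was 0.829, and 0.778 without the third library, 0.629 with the counts of the other table and 0.03 after each library was corrected for GC content and gene length. In the lowest of 10 equal groups of genes by GC, with a median GC of 38.2%, the median interaction was -1.12, and 165 genes were lower and 1 higher at an adjusted p under 0.05. In the highest group, with a median GC of 63.3%, the median interaction was 1.22, and 2 genes were lower and 280 higher. The effect of SFRP2 on COL1 had nearly the same correlation, 0.83, and the effect on CCP had 0.155. The part of base composition in the results below was not tested beyond this correction.

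**Figure D1:**
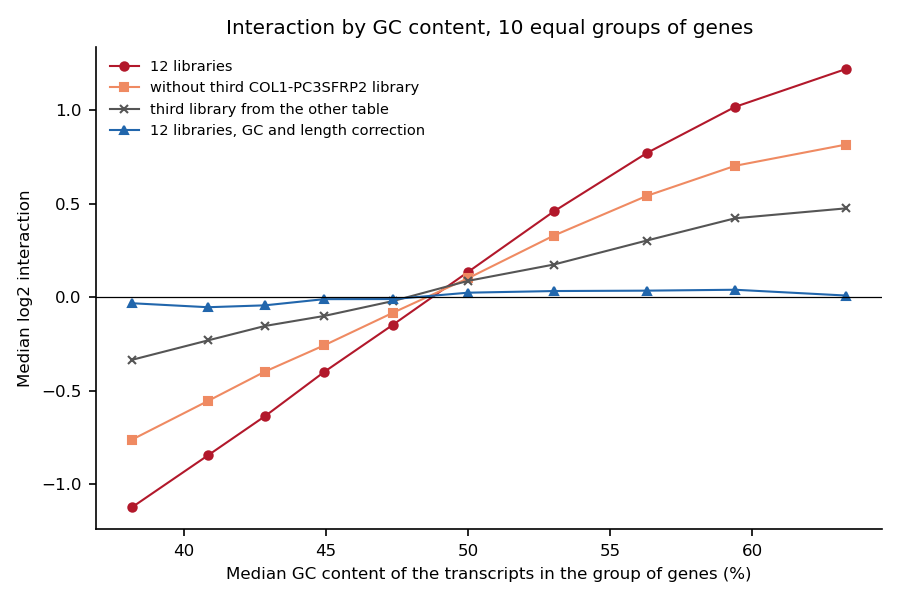
Median log2 interaction (vertical axis) in 10 equal groups of genes ordered by GC content (horizontal axis, %), for the 12 libraries, without the third COL1-PC3SFRP2 library, with the other table's counts in its place, and with the GC and length correction. With the 12 libraries the medians run from -1.12 at 38.2% GC to 1.22 at 63.3% GC; with the correction they stay between -0.05 and 0.04.

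More genes were called different between PC3SFRP2 and PC3 cells on collagen than on plastic. The effect of SFRP2 on COL1 was called for 7157 of 20364 genes (35.1%; 3681 higher, 18.1%, and 3476 lower, 17.1%; edgeR's quasi-likelihood test with Benjamini-Hochberg adjustment, adjusted p under 0.05). On CCP it was called for 16 genes (0.0786%; 6 higher, 0.0295%, and 10 lower, 0.0491%), and 1001 genes (4.92%) had an unadjusted p under 0.05. Without the third COL1-PC3SFRP2 library the counts were 6931 on COL1 and 384 on CCP, and they were 223 and 59 with the counts of the other table. With the GC and length correction they were 3422 on COL1 and 89 on CCP. In bulk RNA, fewer cells that express a gene and less of its RNA per cell cannot be told apart. The same interaction can be read across surfaces: a difference between collagen and plastic was called for 7665 genes in PC3SFRP2 cells (37.6%) and 0 in PC3 cells (0%). In PC3 cells 790 genes (3.88%) had an unadjusted p under 0.05, and DESeq2 called 6 and limma voom 277. With the counts of the other table that difference was called for 4 genes in PC3SFRP2 cells and 3 in PC3 cells, and with the GC and length correction for 3120 and 0.

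The interaction itself was called for 1287 genes, 6.32% of those tested, with 772 higher (3.79%) and 515 lower (2.53%). An unadjusted p under 0.05 was reached by 6189 genes (30.4%). Most calls lay close to the threshold: the smallest adjusted p was 0.0014, the median of the called genes was 0.0404, 2 genes were under 0.01 and 1220 were at 0.03 or more. The count also moved with single libraries. Without the third library of COL1-PC3SFRP2 it was 4050, without the second 5515 and without the first 1041. It was 1267 without the first library of COL1-PC3 and 92 without the third of CCP-PC3, and between 2 and 7 without any of the other 7. With the counts of the other table no interaction was called by edgeR; 1296 genes had an unadjusted p under 0.05, and the smallest adjusted p was 0.757. With the GC and length correction 673 genes were called (203 higher and 470 lower), of which 314 were among the 1287. Total counts in place of TMM gave 1154 higher and 376 lower, and leaving out the mitochondrial genome gave 476 higher and 512 lower. Of 26 alternative analyses, 1140 of the 1287 genes were called in the same direction in at least 10, 185 in at least 15 and 2 in at least 20.

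Genes were sorted by their interaction and by the SFRP2 effect on each surface, with a limit of 0.5 on the log2 scale. Collagen-dependent genes (1195; 717 higher and 478 lower) had a called interaction, a called effect on COL1 and a log2 fold change within 0.5 of 0 on CCP. Amplified genes (24; 9 with a positive and 15 with a negative interaction) had a called interaction and log2 fold changes of the same sign, at least 0.5 in size on CCP and larger on COL1. Opposite genes (64; 42 with a positive and 22 with a negative interaction) had a called interaction and log2 fold changes of opposite sign, each at least 0.5 in size. CCP-dependent genes (4) had a called interaction and a log2 fold change of at least 0.5 in size on CCP and under 0.5 on COL1. Additive genes (597; 300 higher and 297 lower) had no called interaction, a called mean effect over both surfaces (4152 genes in all, 20.4% of those tested; 1922 higher, 9.44%, and 2230 lower, 11%) and a fold change of at least 0.5 in the same direction on each surface. Additive means additive on the log2 scale, so multiplicative in counts. An interaction that misses the threshold does not show that the fold changes were equal: only 72 of the 597 had a 95% interval of the interaction within -1 to 1. Each of the 1287 called interactions met the terms of 1 class. At a limit of 0.25 there were 1603 additive and 185 opposite genes, and at a limit of 1 there were 217 and 20.

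**Figure D2:**
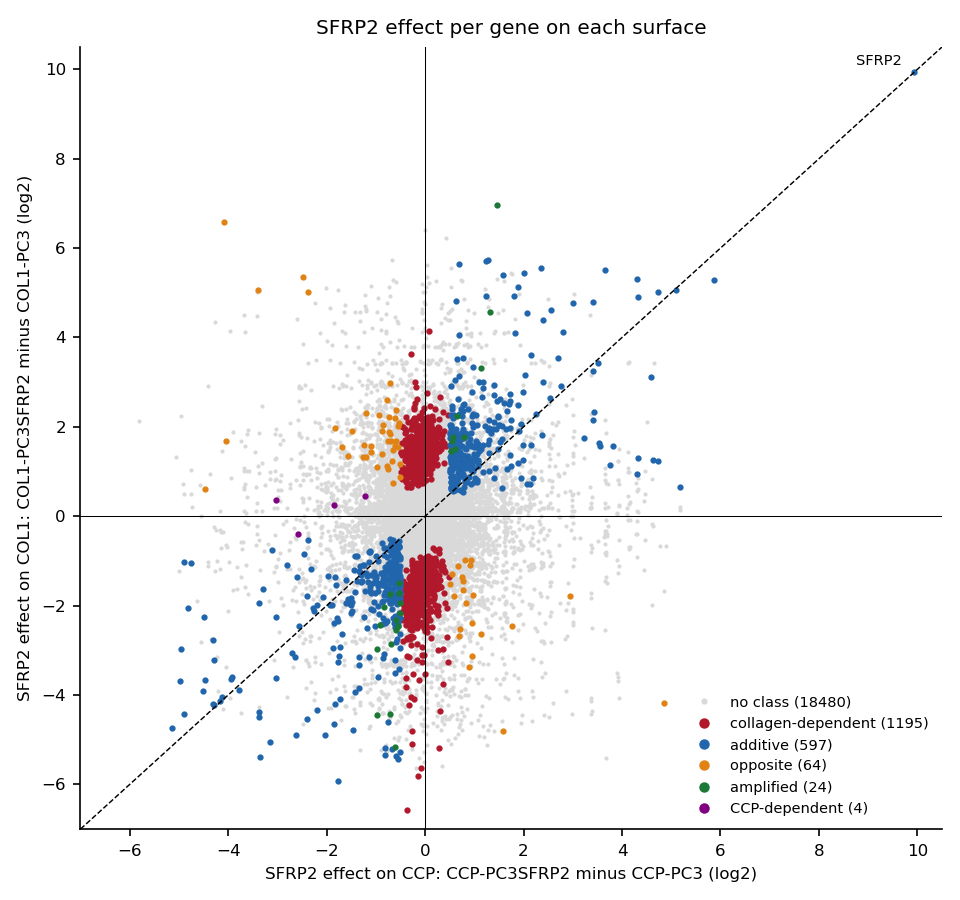
Each point is a gene: its SFRP2 log2 fold change on CCP (horizontal axis) and on COL1 (vertical axis), colored by class, with a dashed line where both are equal. Collagen-dependent genes lie within 0.5 of 0 on the horizontal axis by definition, and SFRP2 lies on the line at the upper right with 9.93 on CCP and 9.95 on COL1.

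Endoplasmic reticulum chaperones led the additive genes that were higher in PC3SFRP2. HSPA5, the main chaperone of the endoplasmic reticulum, had 1413, 1458 and 537 CPM in COL1-PC3SFRP2 and 243, 254 and 314 CPM in COL1-PC3. It had 1454, 1202 and 1313 CPM in CCP-PC3SFRP2 and 348, 321 and 361 CPM in CCP-PC3. All 6 overexpressing libraries were above all 6 control libraries, with the third library of COL1-PC3SFRP2 lowest among the overexpressing ones. The log2 fold change was 2.07 on COL1 (standard error 0.28, edgeR adjusted p = 0.000395) and 1.95 on CCP (standard error 0.28, edgeR adjusted p = 0.00742). The interaction was 0.12 (95% interval -0.70 to 0.94). PDIA4, a protein disulfide isomerase, had 881, 718 and 583 CPM in COL1-PC3SFRP2 and 150, 141 and 136 CPM in COL1-PC3. On plastic PDIA4 had 540, 499 and 518 CPM in CCP-PC3SFRP2 and 165, 161 and 164 CPM in CCP-PC3. Its fold changes were 2.35 on COL1 and 1.67 on CCP, and its interaction was 0.68 (95% interval 0.18 to 1.18, edgeR adjusted p = 0.0749). HYOU1, a chaperone of the same compartment, had an interaction of 0.66 (95% interval 0.12 to 1.21), with fold changes of 1.94 on COL1 and 1.28 on CCP. Without the third library the interaction was called for HSPA5 (0.47), PDIA4 (0.83) and HYOU1 (0.84), so their place among the additive genes rests on that library. With the counts of the other table it was 0.65, 0.65 and 0.60, and not called.

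Of the 26 tested genes of the unfolded protein response list, 11 were additive, against 2.93% of all genes tested. The mean SFRP2 effect was called higher for 15 and lower for 1, against 9.44% and 11% of all genes. The effect on COL1 was called higher for 12 and lower for 2, against 18.1% and 17.1%. The effect on CCP was called higher for 3 and lower for 0, against 0.0295% and 0.0491%. The interaction was called higher for 1 (3.85% of the list, against 6.32% of all genes) and lower for 0. The additive ones were HSPA5, HSP90B1, PDIA4, PDIA6, HYOU1, DNAJB11, CALR, MANF, CRELD2, HERPUD1 and DERL3. The median interaction of the list was 0.13, against -0.002 over all genes. Without the third library 8 of the 26 had a called positive and 4 a called negative interaction, against 9.88% and 10.3% of all genes in that fit (1987 and 2063 of 20103). HSP90B1, the chaperone GRP94, had 845, 1061 and 246 CPM in COL1-PC3SFRP2, 388, 443 and 559 CPM in COL1-PC3, 1900, 1543 and 1716 CPM in CCP-PC3SFRP2 and 587, 521 and 650 CPM in CCP-PC3. The third COL1-PC3SFRP2 library lay below all 3 libraries of COL1-PC3. Its fold changes were 0.63 on COL1 and 1.55 on CCP, neither called alone (edgeR adjusted p = 0.178 and 0.224).

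The promoters of these additive genes are shown because ER stress can act through a shared element, the ER stress response element (ERSE), which the factors NF-Y and ATF6 bind. The windows below were read from RefSeq promoters on GRCh38.p14, 250 bases before to 50 after each gene's start, with 25 bases on each side of the match. Capitals mark the match to the element (CCAAT, 9 bases of any kind, then CCACG), read on the strand of the gene in HSPA5 and on the opposite strand in CALR and CRELD2. Of 2 matches in HSP90B1, the one on the gene's strand is shown.
HSPA5, chr9:125241366-125241434, minus strand: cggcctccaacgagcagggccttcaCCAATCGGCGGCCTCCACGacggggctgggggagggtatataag
HSP90B1, chr12:103930191-103930259, plus strand: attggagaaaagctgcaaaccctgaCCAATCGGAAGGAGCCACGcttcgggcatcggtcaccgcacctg
CALR, chr19:12938359-12938427, plus strand: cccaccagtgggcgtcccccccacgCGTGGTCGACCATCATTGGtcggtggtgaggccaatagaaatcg
CRELD2, chr22:49918529-49918597, plus strand: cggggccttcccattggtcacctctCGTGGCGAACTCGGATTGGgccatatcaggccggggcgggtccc

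The match starts 66 bases before the annotated start in HSPA5, 194 in HSP90B1, 225 in CALR and 80 in CRELD2. On both strands the element was in 22 of 27305 RefSeq promoters (0.0806%) and in 14 of the 12531 promoters matched to tested genes (0.112%). It was in 4 of the 204 promoters matched to additive genes that were higher, and in 0 of 190 additive lower. Collagen-dependent higher genes held it in 0 of 578, collagen-dependent lower in 0 of 353, opposite in 0 of 30 and amplified in 0 of 20. The element was looked for because earlier results had shown ER chaperones among the additive genes, so these counts are only a description. At a share of 0.112%, classes of these sizes would hold few matches or none. CANX and XBP1, on the unfolded protein response list but not additive, also held it (6 of 23 promoters of that list). CALR, the calcium-binding chaperone calreticulin, had fold changes of 1.16 on COL1 and 0.60 on CCP and an interaction of 0.55 (95% interval 0.11 to 1.00). CRELD2, an ER stress-induced gene, had fold changes of 1.72 on COL1 and 0.91 on CCP and an interaction of 0.81 (95% interval 0.19 to 1.43). The ATF4 site TGATGNAAN was in 3.67% of all promoters and 1.84% of those matched to tested genes, in 3.43% of additive higher (7 of 204) and 1.04% of collagen-dependent higher promoters, and in none of the 4 printed above. A match is a description of the letters and not of binding.

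Of all additive genes, chaperones included, 15 were called on each surface alone, 6 higher and 9 lower. The 6 higher were SFRP2, HSPA5, PDIA4, HYOU1, ANXA6 and KLK5. ANXA6, a calcium-dependent membrane-binding annexin, had 196 to 223 CPM in COL1-PC3SFRP2, 41.1 to 49.3 in COL1-PC3, 95.03 to 103 in CCP-PC3SFRP2 and 29.1 to 41.9 in CCP-PC3. KLK5, a secreted serine protease, had fold changes of 1.5 on COL1 and 1.14 on CCP, with an interaction of 0.36 (95% interval -0.17 to 0.89). FAM20C, a kinase of secreted proteins, was additive but not called on CCP alone: its fold changes were 1.87 on COL1 and 0.93 on CCP (edgeR adjusted p = 0.168).

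The 9 additive lower genes called on each surface were EDIL3, CLDN1, TFPI, RGS2, HPGD, HMX3, MS4A7, ONECUT3 and BMPR1B-DT. EDIL3, an extracellular matrix protein that binds integrins, had 0.158, 0.764 and 0.399 CPM in COL1-PC3SFRP2 and 5.58, 4.90 and 9.77 CPM in COL1-PC3. On plastic EDIL3 had 0.564, 1.03 and 0.822 CPM in CCP-PC3SFRP2 and 9.48, 10.48 and 13.5 CPM in CCP-PC3. Its fold changes were -3.89 on COL1 (standard error 0.47) and -3.77 on CCP (standard error 0.39), and its interaction was -0.12 (95% interval -1.39 to 1.15). CLDN1, a tight junction protein, had 12.2, 14.8 and 12.4 CPM in COL1-PC3SFRP2 and 41.5, 42.6 and 42.0 CPM in COL1-PC3. On plastic CLDN1 had 23.4, 23.3 and 18.9 CPM in CCP-PC3SFRP2 and 48.5, 47.0 and 46.9 CPM in CCP-PC3. Overexpressing and control libraries did not overlap for either gene on either surface. CLDN1 had fold changes of -1.68 on COL1 and -1.12 on CCP and an interaction of -0.56 (95% interval -1.08 to -0.03, edgeR adjusted p = 0.145). TFPI, the inhibitor of tissue factor, fell by 1.95 on COL1 and 1.61 on CCP on the log2 scale, and RGS2, which switches off G protein signals, fell by 1.85 and 1.57. Both had intervals of the interaction that include 0, -1.04 to 0.36 for TFPI and -0.87 to 0.32 for RGS2. HPGD, which breaks down prostaglandins, fell by 2.06 on COL1 and 2.28 on CCP. Its COL1-PC3SFRP2 libraries had 6.48, 11.2 and 32.1 CPM, and its interaction was 0.22 with the 12 libraries and -0.66 without the third. HMX3, MS4A7, ONECUT3 and BMPR1B-DT, all at means under 12 CPM in each group, made up the rest, with fold changes from -3.62 to -1.94 on COL1 and from -3.37 to -2.71 on CCP. PALMD, of the paralemmin family, and CXADR, a cell junction protein that serves as a virus receptor, were additive and lower without a call on CCP alone. Their interactions were -1.01 and -1.04, and both were called without the third library, at -0.92 and -0.995.

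SDF2L1 was the amplified gene of the unfolded protein response list. SDF2L1, part of a chaperone complex with HSPA5, lies on chromosome 22 from 21642302 to 21644299. It had 51.0, 42.8 and 75.5 CPM in COL1-PC3SFRP2 and 5.58, 5.69 and 5.55 CPM in COL1-PC3. On plastic it had 16.1, 17.9 and 16.3 CPM in CCP-PC3SFRP2 and 8.16, 8.47 and 6.08 CPM in CCP-PC3. The fold change was 3.33 on COL1 (standard error 0.25) and 1.14 on CCP (standard error 0.23, edgeR adjusted p = 0.126), and the interaction was 2.18 (standard error 0.33, 95% interval 1.47 to 2.89, edgeR adjusted p = 0.0168). It was 1.93 without the third library, 1.71 with the counts of the other table and 0.88 with the GC correction, not called in the last 2. P4HB, a subunit of the collagen prolyl 4-hydroxylase, had 598, 544 and 817 CPM in COL1-PC3SFRP2, 251, 226 and 209 CPM in COL1-PC3, 366, 363 and 366 CPM in CCP-PC3SFRP2 and 219, 270 and 233 CPM in CCP-PC3. The interaction of P4HB was 0.91 (edgeR adjusted p = 0.0465). TAP1, which carries peptides to MHC class I, and LAMB3, a laminin chain of epithelial basement membranes, had interactions of 1.15 and 0.92. All 3 had interactions under 0.4 with the GC correction, and LAMB3 was then at -0.06.

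Amplified genes with a negative interaction included SPTSSB, FOXP1, COL4A5, PLS1, RASSF8 and CKLF. SPTSSB, a small subunit of serine palmitoyltransferase, had 86.0, 103 and 45.1 CPM in COL1-PC3SFRP2 and 507, 606 and 727 CPM in COL1-PC3. On plastic SPTSSB had 296, 331 and 347 CPM in CCP-PC3SFRP2 and 602, 634 and 694 CPM in CCP-PC3. Its COL1-PC3SFRP2 libraries were the lowest and its CCP-PC3SFRP2 libraries lay between them and the overlapping control groups. Its interaction was -1.99 (standard error 0.34, edgeR adjusted p = 0.021). FOXP1, a forkhead transcription factor, had 7.58, 10.1 and 9.18 CPM in COL1-PC3SFRP2, 40.9, 41.7 and 38.5 CPM in COL1-PC3, 26.3, 29.7 and 29.4 CPM in CCP-PC3SFRP2 and 37.3, 37.9 and 45.7 CPM in CCP-PC3. Its interaction was -1.67 with the 12 libraries and -1.74 with the GC correction, and its transcripts have a GC content near the middle of the range, 49.7%. COL4A5, a collagen IV chain, had fold changes of -2.43 on COL1 and -0.93 on CCP and an interaction of -1.51. PLS1, an actin-bundling plastin, and RASSF8 had interactions of -1.73 and -1.42. CKLF, a chemokine-like factor, had 3 counts in COL1-PC3SFRP2 against 139 in COL1-PC3, 168 in CCP-PC3SFRP2 and 255 in CCP-PC3. The ratio of CPM on COL1 was 0.025 (95% exact interval 0.0051 to 0.0746, counting error only). A second alignment was also deposited, used here without the third library of COL1-PC3SFRP2. In it CKLF had 1 count in place of 562 over the 9 libraries outside COL1-PC3SFRP2, so its value depends on the alignment.

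**Figure D3:**
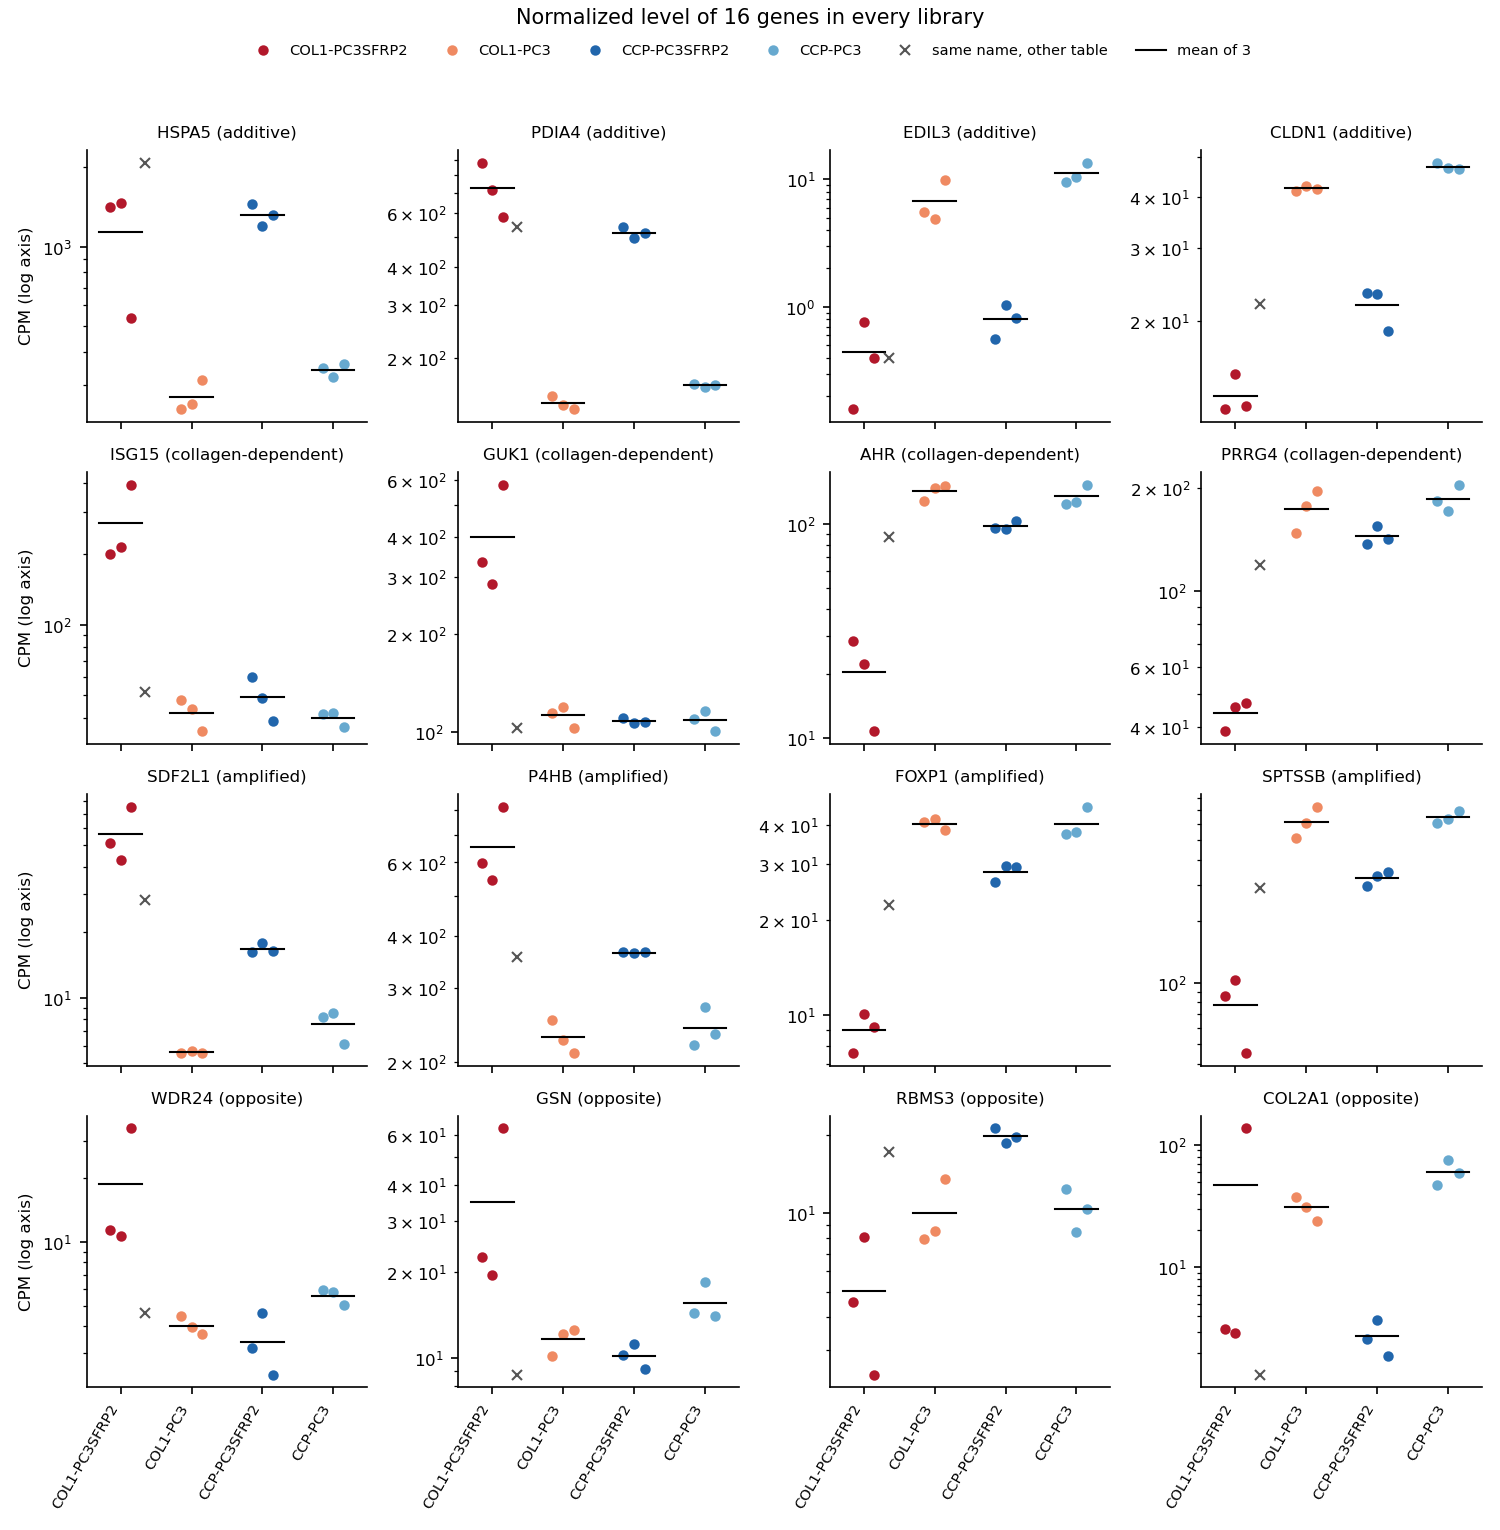
CPM of 16 genes (vertical axis, log scale) in each of the 12 libraries, by group, with 4 genes of each class in a row; lines are means of 3 libraries and the cross is the library of the same name in the other table. HSPA5 and PDIA4 are high in both PC3SFRP2 groups, AHR and ISG15 differ in COL1-PC3SFRP2, and COL2A1 in COL1-PC3SFRP2 has 1 library at 136 CPM and 2 near 3 CPM.

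Collagen-dependent genes that rose were led by an interferon-stimulated gene. ISG15, a ubiquitin-like protein induced by interferon, lies on chromosome 1 from 1001138 to 1014540. It had 199, 215 and 394 CPM in COL1-PC3SFRP2 and 47.8, 43.8 and 35.2 CPM in COL1-PC3. On plastic ISG15 had 60.1, 48.9 and 38.9 CPM in CCP-PC3SFRP2 and 41.6, 42.1 and 36.8 CPM in CCP-PC3. All 3 COL1-PC3SFRP2 libraries were above the other 9. The fold change was 2.67 on COL1 (standard error 0.26) and 0.30 on CCP (standard error 0.25), and the interaction was 2.38 (standard error 0.36, edgeR adjusted p = 0.0168). It was 2.01 without the third library and 1.16 with the GC correction, both called. The library of the same name in the other table had 51.6 CPM, within the range of the other groups, and with it the interaction was 1.58 and not called. The other leading genes were MESP1, a transcription factor of early mesoderm (interaction 2.23), CENPM, a centromere protein (2.04), GUK1, a guanylate kinase (1.84), DDAH2, which acts on methylated arginines (2.12), and CD2BP2, a spliceosome component (1.60). GUK1 had 334, 286 and 579 CPM in COL1-PC3SFRP2, 115, 120 and 103 CPM in COL1-PC3, 110, 106 and 107 CPM in CCP-PC3SFRP2 and 109, 116 and 100 CPM in CCP-PC3. All 6 of these genes had a GC content of 57.0% to 68.0%, and MESP1 and CD2BP2 were not called with the GC correction. Among genes of middle GC content, PSMA7 (50.8%), a proteasome core subunit, had an interaction of 1.72, and 1.49 with the correction, called in both.

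Among the collagen-dependent genes that fell, the 6 with the smallest interaction p-values were AHR, GPR160, GET1, PRRG4, RPL23AP2 and PCLAF. AHR, a ligand-activated transcription factor, lies on chromosome 7 from 16916359 to 17346152. It had 28.4, 22.2 and 10.8 CPM in COL1-PC3SFRP2 and 128, 147 and 150 CPM in COL1-PC3. On plastic AHR had 96.0, 95.1 and 103 CPM in CCP-PC3SFRP2 and 124, 126 and 152 CPM in CCP-PC3. The fold change was -2.78 on COL1 (standard error 0.27) and -0.45 on CCP (standard error 0.24), and the interaction was -2.33 (standard error 0.36, edgeR adjusted p = 0.0168). It was -2.02 without the third library and -1.36 with the GC correction, both called. GPR160, an orphan receptor, had an interaction of -2.13 and was -1.90 with the correction. GET1, a receptor for insertion of tail-anchored proteins, had -1.80 and -1.41 with the correction. PRRG4, a transmembrane protein with a Gla domain, had 38.9, 45.9 and 46.9 CPM in COL1-PC3SFRP2, 148, 178 and 197 CPM in COL1-PC3, 138, 156 and 142 CPM in CCP-PC3SFRP2 and 183, 172 and 205 CPM in CCP-PC3. Its interaction was -1.62, and -0.47 with the correction and not called. The 2 smallest p-values belonged to RPL23AP2 and PCLAF. RPL23AP2, a processed pseudogene of a ribosomal protein, had 3 counts in COL1-PC3SFRP2, 214 in COL1-PC3, 216 in CCP-PC3SFRP2 and 235 in CCP-PC3, a ratio of 0.0162 on COL1 (95% exact interval 0.0033 to 0.0481). PCLAF, a factor that binds the replication clamp PCNA, had 4.90, 6.42 and 4.59 CPM in COL1-PC3SFRP2, 72.9, 97.8 and 128 CPM in COL1-PC3, 47.5, 64.9 and 77.8 CPM in CCP-PC3SFRP2 and 55.3, 62.1 and 122 CPM in CCP-PC3. Both depended on the alignment. In the second alignment the 9 libraries of the other groups had 0 counts in place of 665 for RPL23AP2 and 1021 in place of 5692 for PCLAF, while 2 libraries of COL1-PC3SFRP2 had 66 in place of 73 for PCLAF. The interaction of PCLAF was then -0.87.

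As a class, the collagen-dependent genes had their largest interactions in the third library and medians near 0 in the library of the same name in the other table. All 3 COL1-PC3SFRP2 libraries were above all 9 others for 705 of the 717 higher genes (16.4% of all genes tested) and below them for 478 of the 478 lower genes (17.2% of all genes tested); the class was chosen on these values, so this is a description. The median interaction of the 717 higher genes was 1.18, 0.97 and 1.93 when the first, the second or the third library stood alone for COL1-PC3SFRP2. It was -0.15 for the library of the same name in the other table, where 244 of the 717 (34.0%) were positive. For the 478 lower genes it was -1.32, -1.15 and -2.20, and 0.04 in the other table's library. With the GC correction 291 of the 1195 were called in the same direction. The median GC content was 60.01% in the higher genes and 40.8% in the lower genes. The median size of the collagen effect in this class was 1.54 on the log2 scale in PC3SFRP2 cells and 0.14 in PC3 cells.

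**Figure D4:**
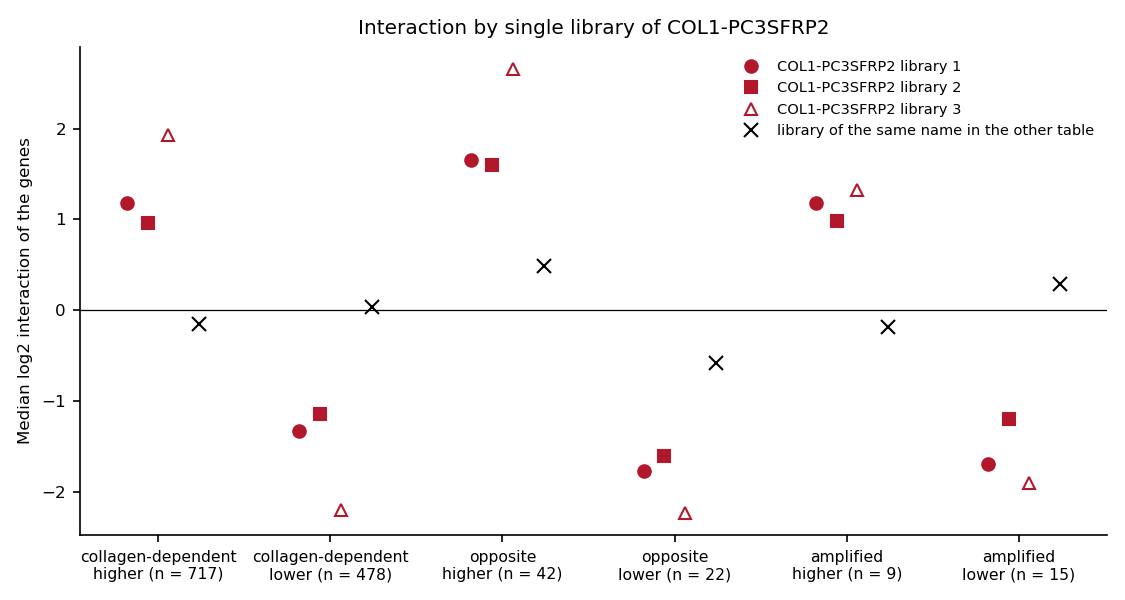
Median log2 interaction (vertical axis) of the genes of 6 classes when COL1-PC3SFRP2 is 1 library alone: the first, the second or the third of the group, or the library of the same name in the other table (cross). The 3 libraries lie on the same side of 0 in every class, and the classes were chosen on them. The cross is at -0.15 (higher) and 0.04 (lower) for the collagen-dependent classes and at 0.49 and -0.58 for the opposite classes. For the amplified classes it is at -0.18 and 0.29, on the other side of 0 from the 3 libraries.

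The opposite class was small and mostly of low expression: 11 of 64 genes had a mean of at least 5 CPM. None of the 64 was called on CCP alone. WDR24, a subunit of the GATOR2 complex that signals amino acid supply, had 11.4, 10.7 and 34.3 CPM in COL1-PC3SFRP2 and 4.46, 3.95 and 3.66 CPM in COL1-PC3. On plastic WDR24 had 3.16, 4.63 and 2.35 CPM in CCP-PC3SFRP2 and 5.91, 5.78 and 5.05 CPM in CCP-PC3. The groups did not overlap on either surface. The fold change was 2.21 on COL1 (standard error 0.41) and -0.73 on CCP (standard error 0.42), and the interaction was 2.94 (standard error 0.58, edgeR adjusted p = 0.0309). It was 2.21 without the third library and 1.61 with the GC correction, both called. GSN, the actin-severing protein gelsolin, had 22.6, 19.4 and 63.1 CPM in COL1-PC3SFRP2, 10.22, 12.2 and 12.5 CPM in COL1-PC3, 10.3, 11.2 and 9.16 CPM in CCP-PC3SFRP2 and 14.4, 18.4 and 14.0 CPM in CCP-PC3. The interaction of GSN was 2.18, and 1.46 without the third library. RBMS3, an RNA-binding protein, went the other way, with 4.58, 8.10 and 2.40 CPM in COL1-PC3SFRP2, 7.99, 8.53 and 13.5 CPM in COL1-PC3, 21.1, 18.6 and 19.6 CPM in CCP-PC3SFRP2 and 12.3, 8.47 and 10.4 CPM in CCP-PC3. Its interaction was -1.91, and -1.64 with the GC correction, called in both. TM7SF2, a sterol reductase of cholesterol synthesis, and CBX2, a Polycomb protein, had interactions of 2.44 and 1.38 (1.42 and 0.99 without the third library), and in both the third library was the highest of all 12. RPL41P2, a ribosomal protein pseudogene, had an interaction of 1.91, which was -0.34 in the second alignment, where its counts in the 9 other libraries were 727 in place of 358.

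COL2A1 and SPARC, 2 matrix genes of the opposite class, were high on collagen with SFRP2 in the third library alone. COL2A1, the collagen of cartilage, had 3.16, 2.91 and 136 CPM in COL1-PC3SFRP2 and 37.2, 31.3 and 23.97 CPM in COL1-PC3. On plastic COL2A1 had 2.60, 3.73 and 1.88 CPM in CCP-PC3SFRP2 and 47.2, 74.6 and 59.3 CPM in CCP-PC3. Apart from the third library, every overexpressing library was below every control library on both surfaces. The interaction was 5.07 with the 12 libraries (edgeR adjusted p = 0.0458), 1.15 without the third and 0.81 with the counts of the other table. SPARC, a collagen-binding matrix protein of bone, had 0, 2 and 24 counts in COL1-PC3SFRP2 and 0, 0 and 0 in COL1-PC3. On plastic SPARC had 1, 0 and 0 counts in CCP-PC3SFRP2 and 6, 11 and 6 in CCP-PC3. With COL1-PC3 at 0 no fold change is given.

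The CCP-dependent class held 4 genes, all under a mean of 5 CPM and named after their values were seen. KRT4, a keratin of stratified epithelia, had 1.83 to 6.39 CPM in COL1-PC3SFRP2, 3.90 to 5.05 in COL1-PC3, 0.677 to 0.8999 in CCP-PC3SFRP2 and 3.50 to 5.78 in CCP-PC3. It was the only 1 of the 4 called on CCP alone (log2 fold change -2.58, edgeR adjusted p = 0.0451). SERGEF, LRMDA and SLC25A18 had interactions of 1.67, 2.10 and 3.39, with edgeR adjusted p = 0.0468, 0.0482 and 0.0492. SLC25A18 had 2 counts in CCP-PC3SFRP2 against 19 in CCP-PC3, a ratio of 0.105 (95% exact interval 0.0118 to 0.433).

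Of 20 genes that the study discusses, the interaction was called higher for 3 (SPARC, COL2A1 and WNT10B) and lower for 1 (BMPR2), and 6 were additive. Over all genes tested the shares were 3.79% higher, 2.53% lower and 2.93% additive. This list was drawn up by the study on these samples, so its counts are not independent evidence. WNT10B, a WNT ligand tied to bone formation, had 3.95, 3.21 and 2.99 CPM in COL1-PC3SFRP2, 1.12, 0.790 and 0.111 CPM in COL1-PC3, 2.03, 0.8999 and 1.29 CPM in CCP-PC3SFRP2 and 1.12, 2.02 and 1.94 CPM in CCP-PC3. The interaction of WNT10B was 2.69 (edgeR adjusted p = 0.047), and 2.79 without the third library. BMPR2, a type II receptor of bone morphogenetic proteins, had 35.1, 43.7 and 16.4 CPM in COL1-PC3SFRP2, 78.1, 85.6 and 93.5 CPM in COL1-PC3, 93.5, 83.7 and 94.0 CPM in CCP-PC3SFRP2 and 73.1, 83.2 and 99.6 CPM in CCP-PC3. Its interaction was -1.51, and -0.55 with the GC correction and not called. CDH15, a cadherin of muscle, had 6.73 to 8.53 CPM in COL1-PC3SFRP2, 0 to 0.929 in COL1-PC3, 2.19 to 3.99 in CCP-PC3SFRP2 and 0 to 0.941 in CCP-PC3, and was additive. ITGB2, an integrin chain of leukocytes, had 28.4 to 144 CPM in COL1-PC3SFRP2, 11.1 to 18.0 in COL1-PC3, 14.4 to 18.1 in CCP-PC3SFRP2 and 14.0 to 15.4 in CCP-PC3. The interaction of ITGB2 was 2.09 and was not called (edgeR adjusted p = 0.0605). WNT4, with 1.74, 2.14 and 12.6 CPM in COL1-PC3SFRP2, had an interaction of 2.84 (edgeR adjusted p = 0.116), and 1.40 without the third library. CTNNB1, the gene of beta-catenin, had an interaction of 0.42 (edgeR adjusted p = 0.206).

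The gene lists differed in how many members had a called interaction, against 3.79% higher and 2.53% lower over all genes tested. Among the interferon-stimulated and antigen presentation genes 7 of 27 were higher and 0 lower, with a median interaction of 1.01. They were ISG15, IFI6, IRF7, IFITM1, HLA-B, TAP1 and PSMB8. IRF7, the factor that drives interferon genes, had 46.5, 47.2 and 94.8 CPM in COL1-PC3SFRP2, 19.7, 17.5 and 15.2 CPM in COL1-PC3, 17.0, 15.7 and 17.7 CPM in CCP-PC3SFRP2 and 17.8, 19.3 and 15.4 CPM in CCP-PC3. The third library was the highest and the other 2 were also above the 9 libraries of the other groups. IFITM1 had 9.16, 22.2 and 73.9 CPM in COL1-PC3SFRP2, 2.84 to 5.76 CPM in COL1-PC3, 7.33 to 11.3 CPM in CCP-PC3SFRP2 and 9.32 to 10.7 CPM in CCP-PC3. Its interaction was 3.07, and 1.93 without the third library. Of the epithelial genes 6 of 22 were higher and 0 lower, with a median of 1.15: the keratins KRT8 (1.34), KRT18 (1.13) and KRT19 (1.67), with CLDN7, PKP3 and CRB3. Without the third library KRT19 was at 0.99. The annotated spans of KRT8 and KRT18 overlap, so their reads may be shared. Of the mesenchymal genes 2 of 25 were higher (COL6A2 and SERPINH1) and 0 lower. With the GC correction 2 of 27 interferon and 1 of 22 epithelial genes were called higher, with medians of 0.47 and 0.33, against 0.997% higher and 2.31% lower over all genes with that correction.

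Genes that build and bind collagen moved in both directions. Of the collagen biosynthesis enzymes 5 of 18 were higher and 0 lower: the lysyl hydroxylases PLOD1 (1.47) and PLOD3 (1.57), P4HB (0.91), the collagen chaperone SERPINH1, and BMP1 (1.78), the protease that trims procollagen. Without the third library SERPINH1 was at 0.91 in place of 1.41 and PLOD3 at 1.05. BMP1 had 16.1, 13.1 and 22.4 CPM in COL1-PC3SFRP2, 4.83, 5.69 and 5.55 CPM in COL1-PC3, 7.79, 6.04 and 7.17 CPM in CCP-PC3SFRP2 and 6.01, 9.41 and 7.38 CPM in CCP-PC3. With the GC correction 0 of the 18 were higher and 1 lower. Of 19 integrins, the receptors that hold cells to matrix, ITGB5 was higher (1.31) and ITGB8 lower (-1.23), and the median was -0.64. Of the other collagen receptors 1 of 8 (SDC1) was higher. Of 22 collagens, COL2A1 and COL6A2 were higher and COL4A5 lower, and of 13 laminin and basement membrane genes LAMB3 and AGRN were higher. None of 16 metalloproteinases and inhibitors was called by edgeR.

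Shares of called interactions in the WNT and BMP lists ran from 5.26% to 15.4%, against 6.32% over all genes tested. They were 5.26% for WNT ligands and antagonists and 7.69% for receptors and beta-catenin pathway genes. WNT targets had 15.4% and the BMP and TGF-beta pathway 13.8%. Of 19 WNT ligands and secreted antagonists 1 was higher (WNT10B) and 0 lower. Of 26 receptors and beta-catenin pathway genes DVL1 (1.79) and AXIN1 (1.47), a transducer and a scaffold of the WNT signal, were higher, and both missed the call with the GC correction (0.48 and 0.27). Of 13 WNT target genes 2 were higher (NKD2 and EPHB2). In the BMP and TGF-beta pathway 2 of 29 were higher (BMP1 and ID1) and 2 lower (BMPR2 and ACVR2A). ID1, a target of BMP signals, had an interaction of 1.52. Of 17 osteoblast and bone matrix genes SPARC and CCN1 were higher (11.8% called). CCN1, a matricellular protein and a target of YAP, had 474, 465 and 522 CPM in COL1-PC3SFRP2, 216, 225 and 198 CPM in COL1-PC3, 251, 235 and 234 CPM in CCP-PC3SFRP2 and 195, 187 and 167 CPM in CCP-PC3. Its interaction was 0.80, 0.76 without the third library and 0.79 with the GC correction, called in all 3, and its GC content is 49.1%.

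Among genes of protein synthesis, protein breakdown and respiration, 18 of 82 cytosolic ribosomal proteins were higher and 1 lower (median 0.39). Of 30 proteasome subunits 6 were higher and 2 lower (0.41), and of 34 nuclear-encoded respiratory chain genes 6 were higher and 1 lower (0.56). With the GC correction 10 ribosomal proteins were higher and 2 lower (median 0.19), and 7 proteasome subunits higher and 2 lower (0.44). Respiratory chain genes then had 4 higher and 0 lower (0.25). Over all genes that correction gave 0.997% higher and 2.31% lower. RPS14 and RPS19 had interactions of 1.25 and 1.17, PSMB6 of 1.34 and UQCRC1 of 1.64. PSMA2 was lower (-2.75), and its counts in the 9 other libraries were 568 in the second alignment in place of 1632. The 30 tested genes of the mitochondrial genome had 2 lower, MT-ND3 (-1.06) and MT-ND6 (-1.53), and a median of -0.73, beside the mitochondrial shares of the libraries given above. Of the S phase genes 4 of 30 were higher and 1 lower. UHRF1, which keeps DNA methylation through replication, had 26.2, 22.02 and 50.9 CPM in COL1-PC3SFRP2, 6.69, 6.79 and 9.21 CPM in COL1-PC3, 7.90, 7.46 and 10.8 CPM in CCP-PC3SFRP2 and 11.3, 11.96 and 8.54 CPM in CCP-PC3. Its interaction was 2.39, and 1.48 with the GC correction, called in both. Of 29 mitosis genes KIF11, a spindle motor, was lower (-1.56), and of 16 cell cycle regulators CDK4 was higher (1.29) and RB1 lower (-1.78). In the integrated stress response ATF4 (0.85) and TRIB3 (1.74, and 1.16 without the third library) were the 2 of 19 that were higher. Of 219 chromosome 19 zinc finger genes 3 were higher and 7 lower, ZNF91 among them (-1.79).

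The remaining lists held at most 4 called interactions each, and many had a larger share than the 6.32% of all genes tested. That share includes genes of low counts. Of the 1287 called genes, 1145 were among the 10558 with a mean of at least 5 CPM, where the share called was therefore larger. A list of expressed genes, here or above, can thus exceed 6.32% without standing out from other expressed genes. In short lists a share also rests on few genes. The share was 21.1% for lysosome genes and 37.5% for the 8 PC3 markers. Of the remaining lists with a call, only the actomyosin genes (4.55%) were under 6.32%. In metabolism, 4 of 23 cholesterol and fatty acid synthesis genes, 3 of 24 glycolysis and hypoxia genes and 2 of 19 NRF2 targets were higher and 0 lower, and of 19 lysosome genes 3 were higher and 1 lower. Of 28 guidance and adhesion molecules 3 were higher and 1 lower, as were 3 and 1 of 46 clustered histones. YAP targets (21) and immediate early genes (17) had 1 higher and 1 lower each, and 1 of 22 actomyosin genes was higher, 1 of 12 EGF receptor family genes lower and 2 of 20 aminoacyl-tRNA synthetases higher. The interaction was called by edgeR for none of 18 heat shock proteins, 28 spliceosome genes, 20 cytokines and chemokines and 13 long noncoding RNAs. Of the PC3 markers 2 of 8 were higher and 1 lower, and none of the tested markers of stroma, leukocytes, endothelium or muscle, nor of those that PC3 lacks, was called.

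**Figure D5:**
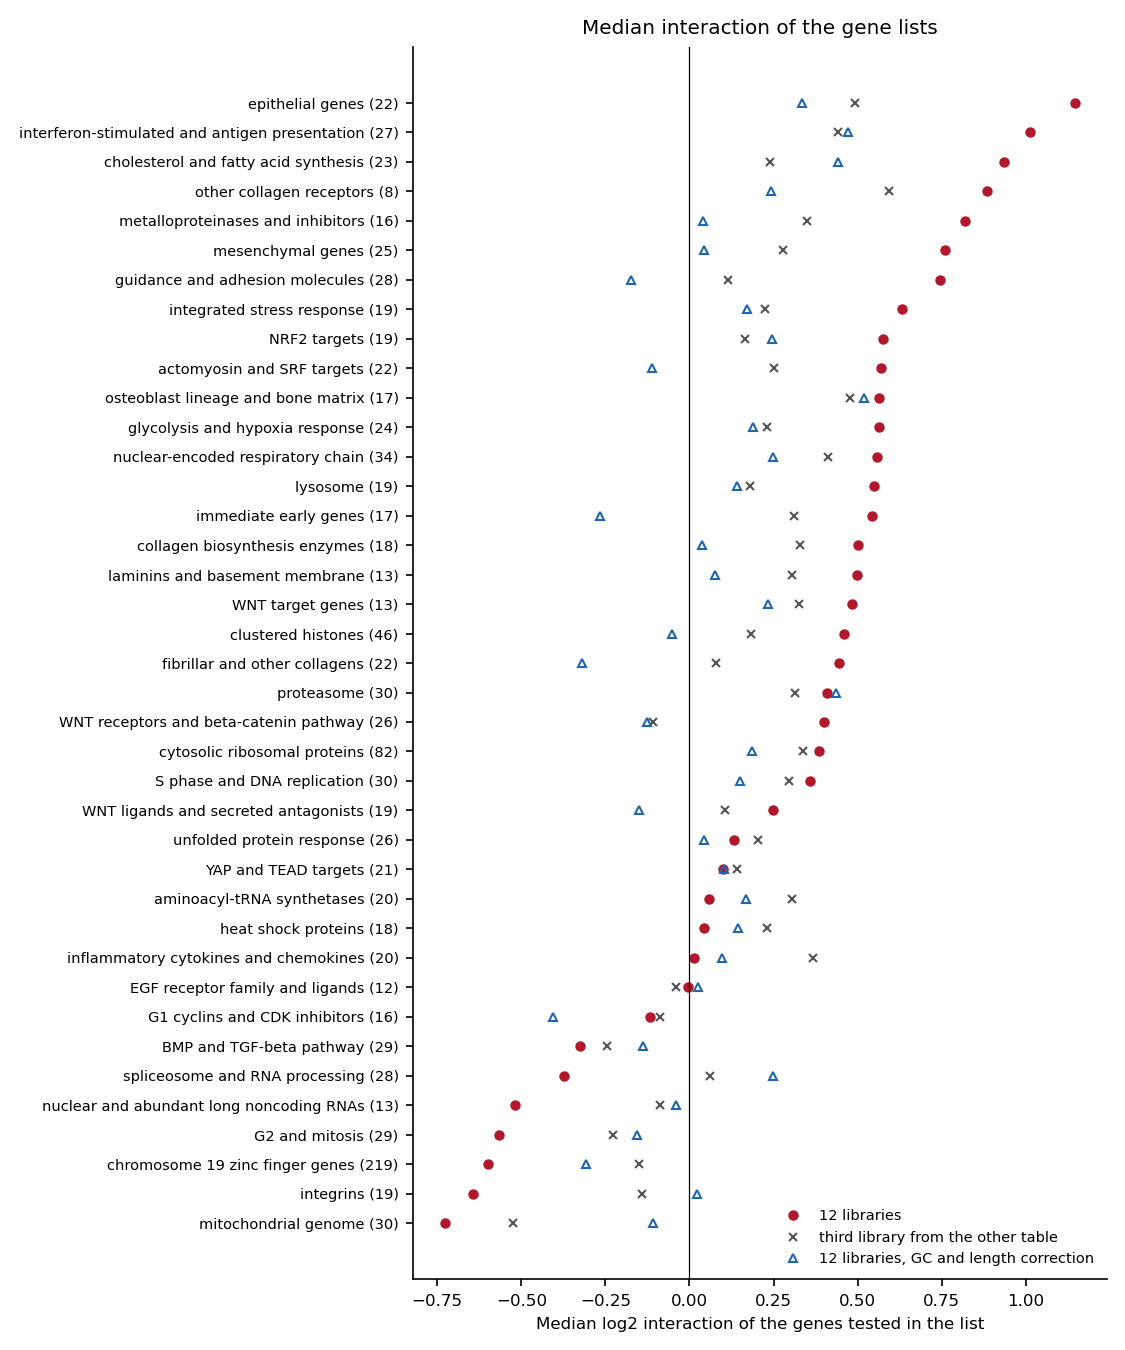
Median log2 interaction (horizontal axis) of each gene list with at least 8 tested members (number in brackets; PC3 markers and the genes the study discusses left out), for the 12 libraries, with the other table's counts for the third COL1-PC3SFRP2 library, and with the GC and length correction. With the 12 libraries the medians run from -0.73 for the mitochondrial genome to 1.15 for epithelial genes, and with the correction both are nearer to 0.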

How the data were processed

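RNA was sequenced from 12 libraries, 3 per group, made with the Lexogen SENSE mRNA-Seq V2 kit. The authors clipped adaptors, aligned the reads (STAR, GRCh38) and deposited raw, unnormalized counts for each Ensembl gene, not pooled. The read counter is not given in the sources used here. Groups came from the sample labels. Of the columns deposited, 56 per-sample columns that match no sample by name, or repeat one, were not used. Gene positions, GC content and length came from GENCODE release 44 (99.47% of IDs matched), and promoters from RefSeq on GRCh38.p14.

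The 20364 genes whose sum over all libraries reached 10 counts were fitted in 1 model of 4 groups with edgeR 4.0.16 (TMM scaling, robust quasi-likelihood fit, R 4.3.3). P-values were adjusted by Benjamini-Hochberg over all genes tested and called under 0.05. Standard errors are the log2 fold change divided by the square root of F, and intervals are 95%. CPM are counts per 1000000 counts of the TMM-scaled library. Exact intervals of count ratios cover counting error only, since reads without molecular identifiers are not independent molecules.

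Alternatives were DESeq2 1.42.0, limma 3.58.1 voom with quality weights, other scalings and filters, class limits of 0.25 and 1, a GC and length correction of each library by splines (5 and 3 degrees of freedom), a replicate block, a second deposited alignment of 11 libraries (all but the third of COL1-PC3SFRP2), each library left out, and the counts that another deposited table gives under the third COL1-PC3SFRP2 library's name. The last of these together with the GC and length correction was chosen after seeing the data. The code was tested on simulated data. At a simulated log2 interaction of 1 fewer genes were called than the test first asked for. That limit was then kept only for the larger simulated interaction, and the shortfall was not tested further. Among genes with a mean of at least 5 CPM, those named were the 6 with the smallest interaction p per direction in the collagen-dependent class (with 4 more per direction among those also called with the correction), the 6 in each other class with an interaction, the 12 additive genes with the smallest p of the mean effect, all additive genes called on each surface, the genes the study discusses and up to 4 per gene list. Further list members were named where a count of called genes is spelled out, after their values were seen. The members and the 46 lists were chosen with earlier results of these data known.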

Additional observations from a re-analysis of the deposited data

Results flagged for a closer look

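By the interaction test itself, the effect of SFRP2 was called different between the surfaces for 1287 genes (edgeR, adjusted p under 0.05). The named genes among them follow, each with its log2 interaction. Collagen-dependent genes with a more positive effect on collagen were ISG15 (2.38), MESP1 (2.23), CENPM (2.04), GUK1 (1.84), DDAH2 (2.12), CD2BP2 (1.60), UHRF1 (2.39), IRF7 (1.91), PSMB6 (1.34), PSMA7 (1.72), DVL1 (1.79), RPS19 (1.17), BMP1 (1.78), ID1 (1.52), UQCRC1 (1.64), RPS14 (1.25), TRIB3 (1.74), CDK4 (1.29), AXIN1 (1.47), KRT8 (1.34), IFITM1 (3.07), PLOD3 (1.57), KRT18 (1.13), ITGB5 (1.31), PLOD1 (1.47), KRT19 (1.67), CCN1 (0.80), ATF4 (0.85) and WNT10B (2.69). Collagen-dependent genes with a more negative effect on collagen were RPL23AP2 (-5.67), PCLAF (-3.89), GPR160 (-2.13), GET1 (-1.80), PRRG4 (-1.62), AHR (-2.33), PSMA2 (-2.75), ZNF91 (-1.79), BMPR2 (-1.51), KIF11 (-1.56), RB1 (-1.78), ITGB8 (-1.23), MT-ND3 (-1.06) and MT-ND6 (-1.53). Amplified genes with a positive interaction were SDF2L1 (2.18), TAP1 (1.15), P4HB (0.91) and LAMB3 (0.92). Amplified genes with a negative interaction were CKLF (-4.55), FOXP1 (-1.67), SPTSSB (-1.99), PLS1 (-1.73), RASSF8 (-1.42) and COL4A5 (-1.51). Opposite genes with a positive interaction were WDR24 (2.94), GSN (2.18), RPL41P2 (1.91), TM7SF2 (2.44), CBX2 (1.38) and COL2A1 (5.07). The opposite gene with a negative interaction was RBMS3 (-1.91). The CCP-dependent genes were SERGEF (1.67), KRT4 (2.18), LRMDA (2.10) and SLC25A18 (3.39). CKLF and RPL23AP2 had 3 counts in COL1-PC3SFRP2, so their fitted values depend on the prior count and are no bound. None of these interactions was called with the counts of the other table for the third COL1-PC3SFRP2 library. With the GC and length correction 314 of the 1287 were called. MESP1, CD2BP2, PRRG4, BMPR2, DVL1 and AXIN1 were among those not called then, and LAMB3 and MT-ND3 changed sign.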

How the results depend on the processing

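The number of called interactions moved under most alternatives. Against 1287, it was 3921 with DESeq2, 7801 with voom, 673 with the GC and length correction, 1945 with edgeR's own expression filter, 3710 with no filter, 4008 in the second alignment, 0 with the other table's counts for the third library and 19 with those counts and the correction. It stayed within 1.5 times of 1287 with DESeq2's size factors in edgeR, with total counts, without the mitochondrial genome, and with the correction once the third library was left out. Leaving out 1 library gave 2 to 5515 interactions, 5 to 384 SFRP2 effects on CCP, 4401 to 8296 on COL1, 2007 to 6495 mean effects and 0 to 38 collagen effects in PC3, and 1 to 5093 collagen-dependent, 404 to 751 additive and 0 to 282 opposite genes. The second alignment was used without the third COL1-PC3SFRP2 library, so its counts also differ by that library. Leaving out that library in the first alignment gave 4050 interactions, 384 effects on CCP and 38 collagen effects in PC3. It also gave 3681 collagen-dependent and 136 opposite genes. SFRP2 effects on CCP (16) numbered 98 with DESeq2, 637 with voom, 97 with no filter, 400 in the second alignment, 89 with the correction, 879 with the correction and without the third library, 59 with the other table's counts and 289 with those and the correction. Effects on COL1 (7157) numbered 11000 with voom, 3422 with the correction, 4189 with the correction and without the third library, 223 with the other table's counts and 1547 with those and the correction. Mean effects (4152) numbered 9060 with voom, 2469 with the correction, 398 with the other table's counts and 1615 with those and the correction. Collagen effects in PC3 (0) numbered 6 with DESeq2, 277 with voom, 11 with no filter, 35 in the second alignment, 364 with the correction and without the third library, 3 with the other table's counts and 17 with those and the correction. Collagen effects in PC3SFRP2 (7665) numbered 3120 with the correction, 3699 with the correction and without the third library, 2789 with the correction and the replicate block, 4 with the other table's counts and 814 with those and the correction. Collagen-dependent genes (1195) numbered 3677 with DESeq2, 6536 with voom, 626 with the correction, 1826 with edgeR's own filter, 3410 with no filter, 3680 in the second alignment, 0 with the other table's counts and 16 with those and the correction. Opposite genes (64) numbered 128 with DESeq2, 762 with voom, 23 with the correction, 201 with no filter, 118 in the second alignment, 0 with the other table's counts with or without the correction, 185 at a limit of 0.25 and 20 at a limit of 1. Additive genes (597) numbered 1400 with voom, 280 with the other table's counts, 1603 at a limit of 0.25 and 217 at a limit of 1. Replicate numbers did not pair the samples: over 18 pairs of same-numbered libraries the correlation of their deviations ran from -0.57 to 0.54, 4 were over 0.1, and 4 were the best match of their number. With the replicate block there were 2 interactions, 2 collagen-dependent and 0 opposite genes, and with the block and the correction 520 interactions, 71 effects on CCP, 3162 on COL1, 2211 mean effects, 1 collagen effect in PC3, and 488 collagen-dependent, 345 additive and 15 opposite genes. Among named genes the interaction changed sign for RPL41P2 (-0.34) and HPGD (-0.68) in the second alignment, for HPGD with voom (-0.98), and with the correction for LAMB3 (-0.064, and -0.071 with the block) and MT-ND3 (0.027, and 0.030 with the block). HPGD was also negative in the first alignment without the third COL1-PC3SFRP2 library, which the second alignment lacks. The causes were not tested. With 5529459 to 9975972 counts per library, genes under 1 CPM rest on few reads.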
